A study of Mus musculus with 1152 samples.

Results

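The genes described here are 9 that mark the endothelium, the cell layer that lines every blood vessel: Pecam1, Flt1, Cdh5, Kdr, Tek, Tie1, Emcn, Ly6c1 and Sox17. They were chosen by name, as 9 of the 46517 genes in a table of read counts, and all 9 were found in it under a single row each. Their levels were read in 857 of 1152 sorted wells, those with at least 50000 reads. The question asked of them was how they occurred together in single wells, and how far each was also found in fibroblast wells and in wells of the oligodendrocyte lineage.

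The wells held brain cells of adult C57BL/6 mice, males and females. Cells were sorted by fluorescence from 2 mouse lines: Pdgfra-H2BGFP, a nuclear green reporter of Pdgfra, and Tagl-CREERT2;Ai14, in which an inducible Cre recombinase switches on a red reporter. Before the sort, vessel fragments had been pulled from digested brain with beads carrying an antibody against CD31, the protein that Pecam1 encodes, so the product of 1 of the 9 genes took part in collecting the cells. In brain, Pdgfra marks fibroblasts and oligodendrocyte precursors, neither of which is endothelial. The labels tie no well to a line, an animal or a plate. All wells therefore counted as 1 sample, and no test between classes was possible. Each interval given here covers at most the error of counting reads or wells, not the spread between wells, animals or sets. SMART-seq2 reads carry no molecular identifiers, so copies of a molecule count as separate reads, and intervals on levels may be too narrow.

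Each of the 9 genes belongs to a known part of endothelial biology. Flt1 and Kdr encode receptors for vascular endothelial growth factor (VEGF). Kdr carries most of the growth signal, while Flt1 binds VEGF tightly and limits how much reaches Kdr. Tek encodes the receptor for angiopoietins, which steady mature vessels, and Tie1 encodes its partner receptor. Pecam1 and Cdh5 hold neighbouring endothelial cells together, Emcn encodes a mucin-like surface glycoprotein, Ly6c1 encodes a surface protein abundant on mouse brain endothelium, and Sox17 encodes a transcription factor tied to arterial identity.

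Wells were sorted into classes by marker genes, none of which was among the 9. A gate asked for at least 3 of 6 markers at 100 counts per 1000000 reads (CPM) or more, and a well that passed several gates went to the class with the highest mean marker level. This gave 59 endothelial wells (gate markers Cldn5, Egfl7, Ptprb, Adgrl4, Abcb1a and Itm2a), 90 fibroblast wells (Col1a1, Col1a2, Col3a1, Dcn, Lum and Ogn) and 642 wells of the oligodendrocyte lineage. The lineage wells were 239 of precursors, 88 of committed precursors and 315 of mature oligodendrocytes. Median depth was 365325 reads in endothelial wells, 245053 in fibroblast wells and 293124 in lineage wells. A further 16 wells were microglial, 14 of choroid plexus and 1 mural, and 35 passed no gate.

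Many wells carried RNA of more than 1 cell type. Of the 59 endothelial wells, 41 also passed another gate: 26 the microglia gate, 17 the mural gate, 15 the fibroblast gate and 12 a lineage gate. Of the 90 fibroblast wells, 5 passed the endothelial gate, as did 16 of the 642 lineage wells, 15 of them mature oligodendrocyte wells. All 6 mural gate markers reached 10 CPM in endothelial wells, summing to 2110 CPM there (0 to 8022 CPM per well), against 258 CPM in fibroblast wells (0 to 2503) and 25.0 CPM in lineage wells (0 to 5696). All 6 microglia gate markers did so too, summing to 2117 CPM in endothelial wells (0 to 8403 CPM per well), against 615 CPM in fibroblast wells (0 to 3738) and 127 CPM in lineage wells (0 to 4903). The part of these other cells in the levels below was not tested. In the 18 endothelial wells that passed no other gate the 9 genes summed to 9293 CPM, against 7343 CPM over all 59. Of the 9 genes, 8 stood higher in those 18 wells, and Kdr stood at 352 CPM there, against 403 CPM over all 59.

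The column names divide the wells into 3 sets of 384, named 1025s_182s, 600s_182s and 613s, and the labels do not say what a set is. The kept wells numbered 239, 349 and 269 in that order of sets, with 50002 to 1451280 reads each and a median of 279874. The endothelial wells lay unevenly over the sets, at 29, 6 and 24, as did the fibroblast wells, at 44, 20 and 26, and the lineage wells, at 116, 319 and 207. Set and mouse line, animal or sort cannot be told apart here.

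Promoter sequence is shown for the members that share a motif of the ETS transcription factors, a family that acts on many endothelial genes. Windows of 300 bases, from 250 before to 50 after the start of the gene, were matched for 6 of the 9 genes in RefSeq (build GRCm38.p6). Both strands were searched for the ETS cores CCGGAA and CAGGAA, the SOX core ACAAT and the GATA core AGATAA. The ETS cores, in capitals below, read TTCCGG and TTCCTG here because each lay on the strand opposite to the gene. The window of Emcn, chr3:137340828-137341127 on the plus strand, held 2, at -173 and -67 from the start. The window of Tek, chr4:94739039-94739338 on the plus strand, held 2, at -89 and -59. The window of Tie1, chr4:118489800-118490099 on the minus strand, held 1, at -209, and that of Kdr, chr5:75978406-75978705 on the minus strand, held 1, at -153. These distances are from the RefSeq start. In the GENCODE annotation Tie1 starts at 118490061, inside its window. By that start most of the Tie1 window, with its ETS core, lies within the gene and not before it.
Emcn: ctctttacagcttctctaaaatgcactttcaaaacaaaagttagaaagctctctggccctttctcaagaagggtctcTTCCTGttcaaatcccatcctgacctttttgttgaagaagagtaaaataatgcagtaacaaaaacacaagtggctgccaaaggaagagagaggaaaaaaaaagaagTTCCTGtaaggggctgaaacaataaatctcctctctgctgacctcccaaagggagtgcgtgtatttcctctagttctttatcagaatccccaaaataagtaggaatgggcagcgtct
Tek: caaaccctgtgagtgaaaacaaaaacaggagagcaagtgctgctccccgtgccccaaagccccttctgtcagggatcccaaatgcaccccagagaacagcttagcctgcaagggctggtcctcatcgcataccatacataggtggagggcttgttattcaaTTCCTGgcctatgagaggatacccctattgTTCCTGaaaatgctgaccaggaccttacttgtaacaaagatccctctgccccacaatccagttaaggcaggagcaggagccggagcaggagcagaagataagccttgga
Tie1: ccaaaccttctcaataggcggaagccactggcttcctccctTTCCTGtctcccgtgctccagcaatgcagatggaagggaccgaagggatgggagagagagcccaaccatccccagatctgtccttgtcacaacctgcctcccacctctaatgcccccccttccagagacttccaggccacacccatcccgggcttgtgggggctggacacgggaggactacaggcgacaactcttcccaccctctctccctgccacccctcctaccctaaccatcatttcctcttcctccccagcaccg
Kdr: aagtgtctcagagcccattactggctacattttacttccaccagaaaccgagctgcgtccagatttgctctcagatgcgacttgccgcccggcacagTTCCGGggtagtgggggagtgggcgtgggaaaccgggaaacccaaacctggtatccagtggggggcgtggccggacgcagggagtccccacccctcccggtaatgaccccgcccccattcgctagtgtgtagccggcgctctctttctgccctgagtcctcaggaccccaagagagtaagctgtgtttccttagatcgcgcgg
Neither core was found in the windows of Flt1 and Ly6c1. Other forms of the ETS motif were not searched for, so these windows are not shown to lack one. Of all 32851 promoter windows of the same length, 41.4% held at least 1 of the 2 ETS cores, 14.9% CCGGAA and 30.6% CAGGAA, so 4 of 6 genes is a description and no excess was tested. The SOX core, found in 31.0% of all windows, occurred at -49 in Emcn and at -63 and -7 in Tek, where the copy at -63 shares a base with an ETS core. The GATA core, found in 11.2% of all windows, occurred in Tek at 36.

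Of these 3 classes, endothelial wells had the highest level of all 9 genes, and nearly every such well carried most of them. To compare genes, levels were also given per kilobase of exon. All annotated exons of a gene were merged for this, so the order depends on the annotation. On this measure Ly6c1 led in endothelial wells at 794 CPM per kb. Pecam1 followed at 194, then Flt1 at 150, Tek at 150, Emcn at 147 and Tie1 at 87.6 CPM per kb. Sox17 at 50.9, Cdh5 at 46.7 and Kdr at 44.6 CPM per kb were the lowest. Flt1, Tek and Emcn lay within a few percent of each other, as did Cdh5 and Kdr, and their order is not read as a difference.

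**Figure D1:**
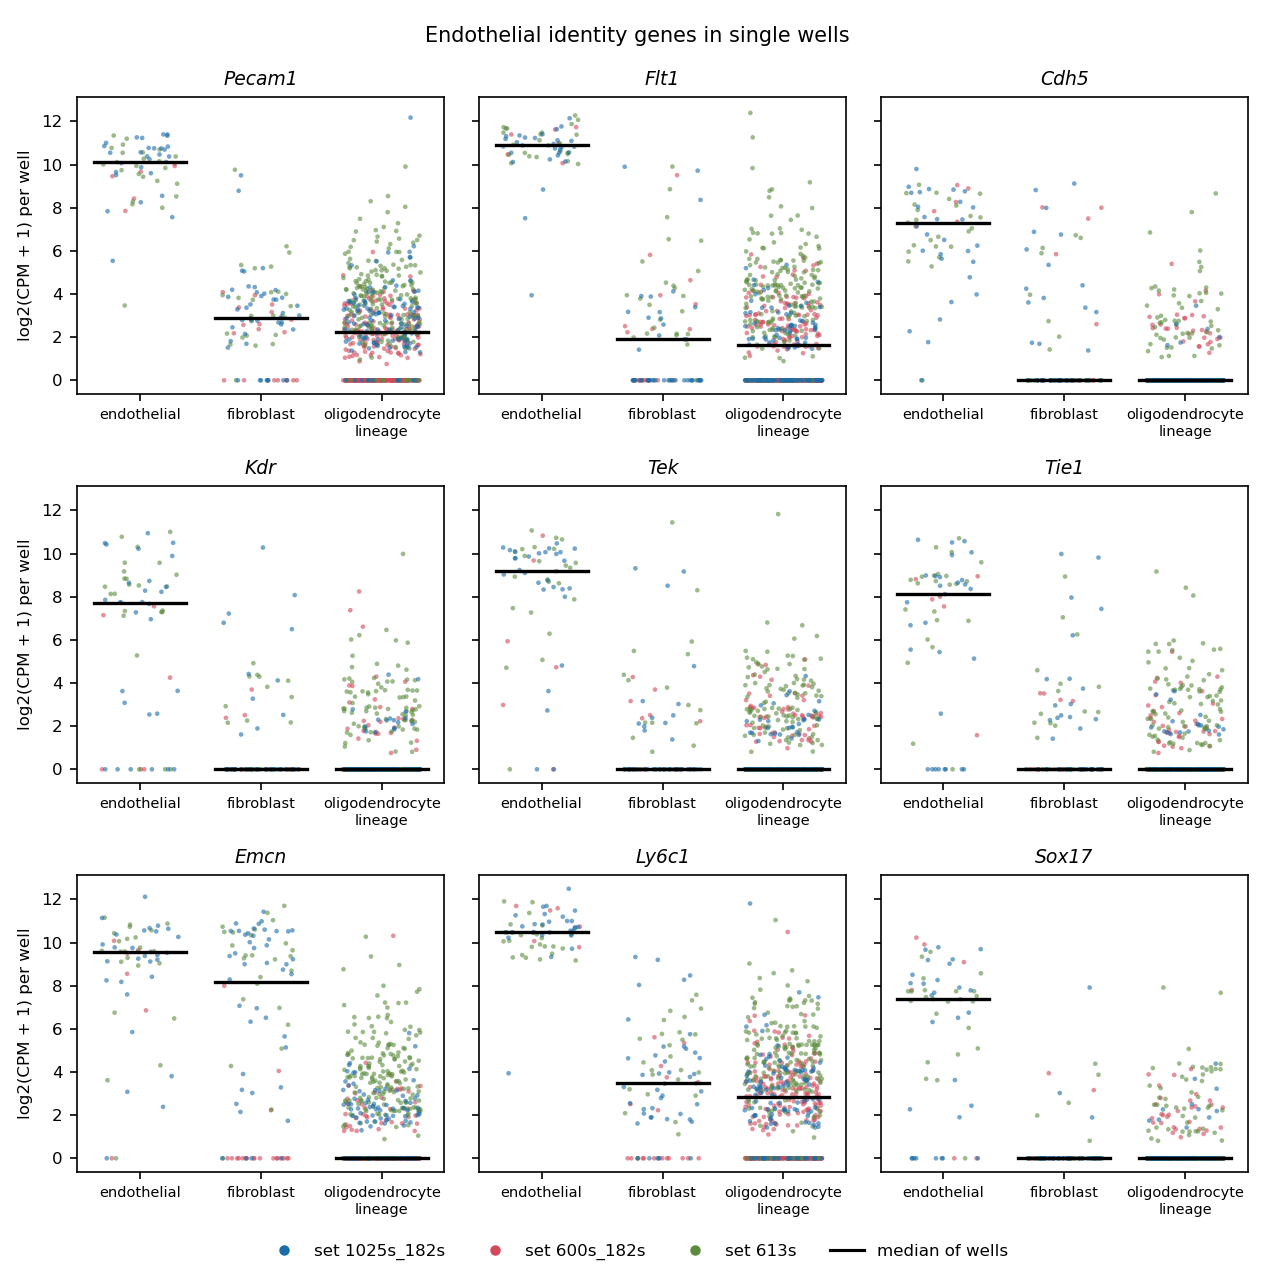
Level of each of the 9 genes in every endothelial (59), fibroblast (90) and oligodendrocyte lineage (642) well, as log2(CPM + 1); each point is a well, coloured by set of wells, and the bar is the median of the wells. In the endothelial column 8 of the genes stand far above the other columns, whereas Emcn has medians of 759 CPM in endothelial wells, 292 CPM in fibroblast wells and 0 in lineage wells.

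Among the VEGF receptors, Flt1 (chr5:147561604-147726011, minus strand, GRCm38) ranged over endothelial wells between 14.3 and 4947 CPM, with a median of 1926. In fibroblast wells Flt1 ran between 0 and 958 CPM with a median of 2.72, and in lineage wells between 0 and 5375 CPM with a median of 2.08. The classes overlapped only in their tails: 58 of 59 endothelial wells were above 100 CPM, as were 7 of 90 fibroblast wells and 20 of 642 lineage wells. From summed reads the level of Flt1 was 2032 CPM in endothelial wells (95% exact Poisson interval 2013 to 2050), 79.6 CPM in fibroblast wells (76.3 to 83.1) and 11.2 CPM in lineage wells (10.8 to 11.6).

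Kdr (chr5:75932827-75978458, minus strand) was much patchier. In endothelial wells it ran between 0 and 2052 CPM with a median of 211, and 12 of the 59 wells had no read of it. Its median was 0 in fibroblast wells, where the highest well had 1240 CPM, and 0 in lineage wells, where the highest had 1011 CPM. Kdr summed to 403 CPM in endothelial wells (394 to 411), 30.7 CPM in fibroblast wells (28.7 to 32.9) and 2.02 CPM in lineage wells (1.84 to 2.22). The 6 endothelial wells of set 600s_182s held 29.4 CPM of Kdr, against 334 CPM in those of 1025s_182s and 503 CPM in those of 613s, and 3 of the 6 had none.

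Tek (chr4:94739289-94874976, plus strand) had a median of 581 CPM over endothelial wells, which ran between 0 and 2147 CPM, with 4 wells at 0. In fibroblast wells its median was 0 and its highest well 2779 CPM, and in lineage wells its median was 0 and its highest well 3630 CPM. Such levels were rare, since 5 fibroblast wells and 3 lineage wells passed 100 CPM. Of these, 4 fibroblast wells and all 3 lineage wells also had at least 3 of the other genes at 20 CPM. Tek summed to 706 CPM in endothelial wells (695 to 717), 34.9 CPM in fibroblast wells (32.7 to 37.2) and 2.73 CPM in lineage wells (2.52 to 2.96).

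Tie1 (chr4:118471191-118490061, minus strand), the partner receptor of Tek, ran between 0 and 1668 CPM in endothelial wells, with a median of 277 and 9 wells at 0. It reached 1009 CPM in the highest fibroblast well and 573 CPM in the highest lineage well, with medians of 0 in both classes. Summed, Tie1 stood at 431 CPM in endothelial wells (422 to 440), 50.1 CPM in fibroblast wells (47.4 to 52.8) and 2.25 CPM in lineage wells (2.06 to 2.46).

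Of the adhesion genes, Pecam1 (chr11:106654217-106750628, minus strand) was read in all 59 endothelial wells, between 10.1 and 2695 CPM with a median of 1104. In fibroblast wells it ran between 0 and 865 CPM with a median of 6.37, and in lineage wells between 0 and 4620 CPM with a median of 3.76. Small amounts of Pecam1 were thus usual outside endothelial wells, while levels above 100 CPM were rare, in 57 of 59 endothelial, 3 of 90 fibroblast and 14 of 642 lineage wells. Its summed level was 1208 CPM in endothelial wells (1193 to 1222), 43.6 CPM in fibroblast wells (41.2 to 46.2) and 8.20 CPM in lineage wells (7.83 to 8.58).

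Cdh5 (chr8:104101625-104144511, plus strand), which encodes VE-cadherin of the adherens junction, ran between 0 and 887 CPM in endothelial wells with a median of 158. Its median was 0 in fibroblast wells, with a highest well of 555 CPM, and 0 in lineage wells, with a highest well of 403 CPM. It was above 100 CPM in 35 of 59 endothelial wells, 9 of 90 fibroblast wells and 3 of 642 lineage wells. Cdh5 summed to 196 CPM in endothelial wells (191 to 202), 29.9 CPM in fibroblast wells (27.9 to 32.1) and 0.819 CPM in lineage wells (0.704 to 0.946).

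Among the surface proteins, Ly6c1 (chr15:75044018-75048830, minus strand) was read in all 59 endothelial wells, between 14.3 and 5763 CPM with a median of 1422. In fibroblast wells it ran between 0 and 643 CPM with a median of 10.1, and in lineage wells between 0 and 3583 CPM with a median of 6.27. Like Pecam1, it had at least 1 read in most fibroblast and lineage wells. It summed to 1331 CPM in endothelial wells (1316 to 1346), 41.8 CPM in fibroblast wells (39.4 to 44.3) and 14.9 CPM in lineage wells (14.4 to 15.4). Of the 50-base stretches of Ly6c1 exons, 32.8% occur in another gene as well, mostly Ly6c2, so reads could be split between these copies or lost. Ly6c2 had 818 reads over all kept wells.

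Emcn (chr3:137341067-137432185, plus strand) departed from the rest. It ran between 0 and 4448 CPM in endothelial wells with a median of 759, and between 0 and 3324 CPM in fibroblast wells with a median of 292. In lineage wells it ran between 0 and 1269 CPM with a median of 0. Its endothelial and fibroblast wells overlapped over nearly their whole range, with 49 of 59 endothelial, 51 of 90 fibroblast and 14 of 642 lineage wells above 100 CPM. The summed level of Emcn was 794 CPM in endothelial wells (783 to 806), 712 CPM in fibroblast wells (702 to 722) and 5.96 CPM in lineage wells (5.64 to 6.29).

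Sox17 (chr1:4490931-4497354, minus strand), the transcription factor, ran between 0 and 1199 CPM in endothelial wells with a median of 165, and 11 of them had none. Outside them it was the scarcest of the 9: 80 of 90 fibroblast wells and 554 of 642 lineage wells had no read, and the highest wells of both classes stood at 240 CPM. Sox17 summed to 243 CPM in endothelial wells (236 to 249), 4.46 CPM in fibroblast wells (3.70 to 5.32) and 0.680 CPM in lineage wells (0.576 to 0.797). Its exons share 804 bases with the antisense gene Gm37587, which had 49 reads in all, and reads of the overlap cannot be assigned without strand.

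To compare detection at equal depth, each well was thinned to 50000 reads. Endothelial wells then held a median of 8 of the 9 genes, and 23 of the 59 held all 9. Fibroblast wells held a median of 2 and lineage wells a median of 1, and no lineage well held all 9. At least 5 of the genes were present in 58 of 59 endothelial wells (98.3%, 95% Clopper-Pearson interval 90.9 to 100), 8 of 90 fibroblast wells (8.89%, 3.92 to 16.8) and 54 of 642 lineage wells (8.41%, 6.38 to 10.8). Without thinning the shares were 100%, 47.8% and 31.2% in the same order. Gene by gene, Flt1 and Ly6c1 were found in 100% of thinned endothelial wells and Pecam1 in 98.3%, then Tek in 88.1%, Emcn in 86.4%, Cdh5 in 84.7%, Tie1 in 78.0%, and Kdr and Sox17 in 74.6% each.

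**Figure D2:**
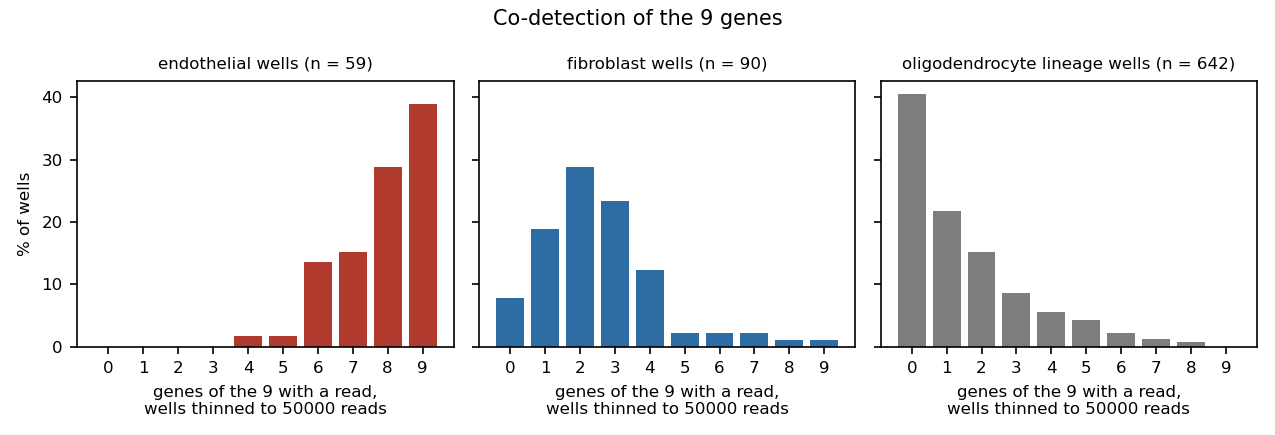
Number of the 9 genes with at least 1 read per well after each well was thinned to 50000 reads, as a percentage of the wells of each class (59 endothelial, 90 fibroblast and 642 oligodendrocyte lineage wells). Endothelial wells sit at the right end with a median of 8 genes, fibroblast wells peak at 2, and lineage wells fall away from 0.

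Wells were also counted by how many of the 9 genes they held together. Over all kept wells, 142 held at least 5 of the genes after thinning, of which 58 were endothelial, 54 lineage, 8 fibroblast, 8 microglial, 7 choroid plexus and 7 ungated. A higher bar, at least 3 of the 9 genes at 100 CPM or more, was met by 93 wells, and 83 of those 93 passed the endothelial gate, which uses other genes. The 16 lineage and 5 fibroblast wells that met it are single wells with much of the endothelial set. The 16 microglial wells held a median of 4.5 of the genes and 7 of them passed the endothelial gate. Their Flt1 summed to 1064 CPM with a median of 263 CPM, and their Pecam1 to 630 CPM with a median of 14.5 CPM. The 3 highest of these wells gave 62.7% of the Flt1 reads and 95.5% of the Pecam1 reads.

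Across the 857 wells the log2 levels of the genes moved together. Flt1 was the most central, with a Pearson correlation of 0.85 against the mean of the other 8, and Emcn the least, at 0.64. The wells share library preparation and differ in class and depth. Within the 59 endothelial wells they were far weaker, between -0.04 for Emcn and 0.46 for Flt1. Sox17 had a correlation of 0.54 with the mean of 6 arterial genes over those wells. That of Emcn was -0.26 with the arterial mean and 0.48 with the mean of 6 capillary genes. Tie1 reached 0.43 with the mean of 6 venous genes. These are descriptions over wells of 1 sample.

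The 10 other genes whose levels ran most like the mean of the 9 over the 857 wells were ranked by the correlation of log2(CPM + 1) among 11374 candidates. Adgrl4 led at 0.86, followed by the organic anion transporter Slco1a4 at 0.84, Ly6a at 0.84, the junction protein Esam at 0.83 and the efflux pump Abcb1a at 0.83. Cldn5, of the tight junction, had 0.82, the thyroid hormone transporter Slco1c1 0.81, Ablim1 0.81, the transcription factor Sox18 0.81 and the adhesion molecule Icam2 0.80. Adgrl4, Abcb1a and Cldn5 are gate markers.

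In the comparison of endothelial with lineage wells, 9 of 9 genes were called higher. A call needed a ratio of at least 2, with 1 CPM added on each side, and at least 10 CPM in the higher class. Of the 9, only Flt1 and Ly6c1 reached 10 CPM in lineage wells, so for the others the filter allowed no lower call. Over all 12404 genes with that level, 22.7% were called higher and 26.1% lower, and the median log2 ratio was -0.04, against 7.05 for the 9 genes. Tek had the highest ratio, 7.56 on the log2 scale, and Ly6c1 the lowest, 6.39. Within each set all 9 genes were likewise higher in endothelial wells, with log2 ratios of 5.18 to 6.82 in 613s. The smallest in any set was 3.47, for Kdr in 600s_182s, where 6 endothelial wells were compared.

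In the comparison of endothelial with fibroblast wells, 8 of 9 genes were called higher, beside 21.3% of 11815 genes higher and 21.5% lower, and Emcn was not called. Sox17 had a log2 ratio of 5.48, Ly6c1 4.96, Pecam1 4.76, Flt1 4.66, Tek 4.30, Kdr 3.67, Tie1 3.08 and Cdh5 2.67. For Emcn the log2 ratio was 0.16 over all wells. It was -0.18 in 1025s_182s and 0.21 in 613s, but 4.90 in 600s_182s, so the near equality of Emcn held in 2 of the 3 sets.

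Expressed as a share of its own endothelial level, each gene could be followed into the other classes. In fibroblast wells Emcn stood at 89.7% of its endothelial level. Next came Cdh5 at 15.2%, Tie1 at 11.6%, Kdr at 7.64%, Tek at 4.94%, Flt1 at 3.92%, Pecam1 at 3.61%, Ly6c1 at 3.14% and Sox17 at 1.83%. Some of these shares differed widely between sets. Against the endothelial wells of the same set, Kdr stood at 17.8% in 1025s_182s, 3.30% in 600s_182s and 0.774% in 613s, and Tie1 at 17.9%, 0.682% and 5.34% in that order. Among the gate markers, Cldn5 stood at 5.14%, Egfl7 at 4.29%, Abcb1a at 2.98%, Adgrl4 at 2.33%, Ptprb at 1.65% and Itm2a at 13.7% of the endothelial level. In the 58 fibroblast wells that passed no other gate, 6 of the 9 stood at 1.77% or less and Tie1 at 6.47%, whereas Cdh5 stood at 15.9% and Emcn at 84.3%.

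**Figure D3:**
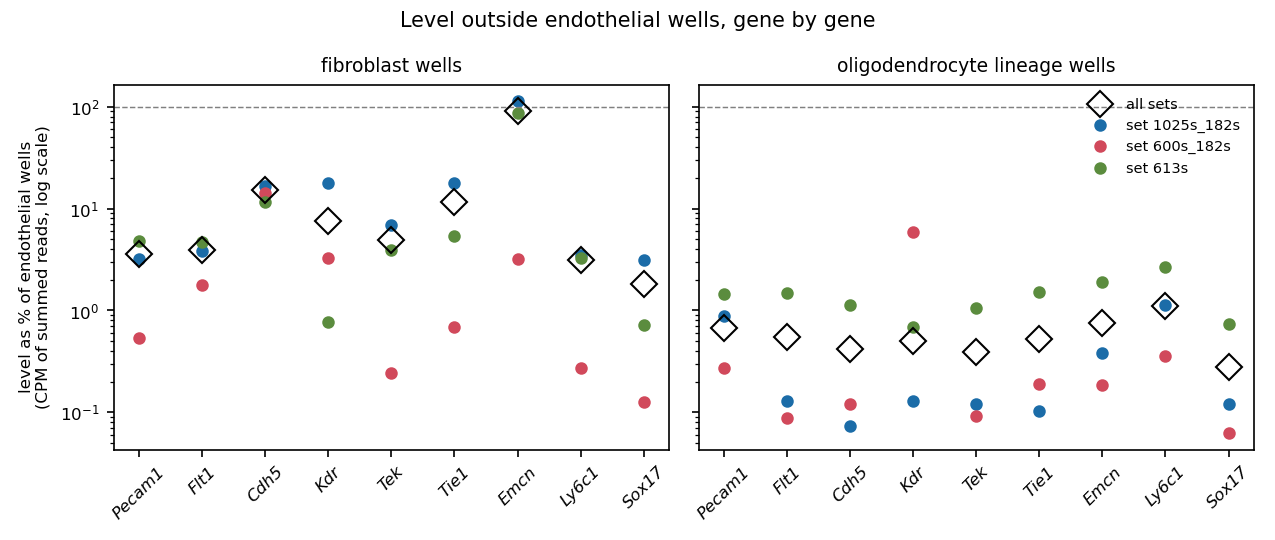
Level of each gene outside endothelial wells, as a percentage of its level in endothelial wells (CPM of summed reads, log axis), in fibroblast wells (left) and oligodendrocyte lineage wells (right); diamonds are all wells, dots are the 3 sets, and the dashed line marks equality. Emcn stands near the line in fibroblast wells except in 600s_182s (3.20%), Cdh5 keeps 11.6% to 16.7% in every set, and in lineage wells the diamonds lie between 0.280% and 1.12%, with the dots between 0.0628% (Sox17 in 600s_182s) and 5.92% (Kdr in 600s_182s).

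For most of these genes, the larger part of the reads in fibroblast wells came from few wells. The 3 highest wells gave 94.2% of the Sox17 reads, 84.6% of Pecam1, 84.4% of Kdr, 69.7% of Tie1, 66.8% of Tek and 64.3% of Flt1. For Ly6c1 the share was 45.4%, for Cdh5 43.3% and for Emcn 15.5%.

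Emcn was found alone in many fibroblast wells. Of the 51 fibroblast wells above 100 CPM of Emcn, 20 had none of the other 8 genes at 20 CPM, 23 had 1 or 2 of them, and 8 had 3 or more. All 3 fibroblast wells above 100 CPM of Pecam1 had at least 3 others. These 3 wells also passed the endothelial gate, whereas 47 of the 51 wells for Emcn did not. Over the 90 fibroblast wells the correlation of Emcn with the mean of the other 8 was 0.18, and with Cldn5 0.20. The 6 fibroblast gate markers had correlations with Emcn of -0.31 for Col3a1 up to 0.44 for Ogn.

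The level of Emcn in fibroblasts depended on the set. Fibroblast wells of 1025s_182s had 861 CPM of Emcn (median 520, 4 of 44 wells at 0) and those of 613s had 727 CPM (median 667, 1 of 26 at 0), whereas those of 600s_182s had 20.0 CPM, with 17 of 20 wells at 0. Endothelial wells of the 3 sets were close to each other, at 760 CPM in 1025s_182s, 627 CPM in 600s_182s and 842 CPM in 613s. Fibroblast wells that passed no other gate gave 868 CPM in 1025s_182s, 1 read over 9 wells in 600s_182s and 576 CPM in 613s. Set, mouse line and kind of fibroblast cannot be told apart across the sets.

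**Figure D4:**
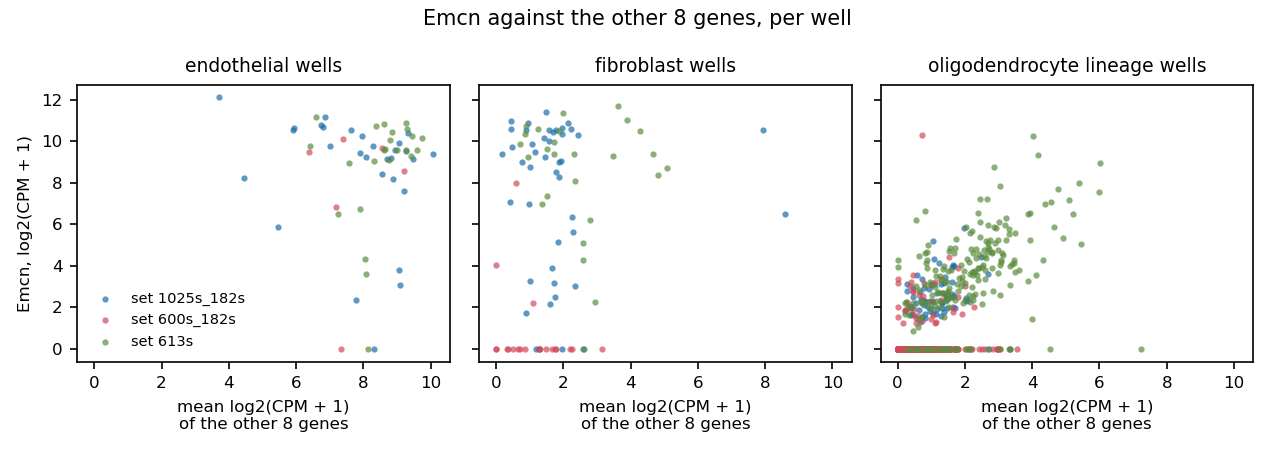
Emcn against the mean of the other 8 genes in each well, both as log2(CPM + 1), for endothelial, fibroblast and oligodendrocyte lineage wells, with points coloured by set. Fibroblast wells with high Emcn mostly lie at low levels of the other 8 genes (correlation 0.18 over 90 wells), while in lineage wells Emcn follows the others (0.62 over 642 wells).

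Within fibroblast wells Emcn ran with some fibroblast genes and against others. This list was drawn up after its values were seen, from 10307 genes. Alpl, alkaline phosphatase, had the highest correlation with Emcn at 0.82, followed by Moxd1 at 0.81, Coch at 0.80, Dpep1 at 0.76 and Id2 at 0.74. The lowest were the GABA transporter gene Slc6a13 at -0.78, Vtn at -0.77, Bmp7 at -0.76 and Fbln2 at -0.69. Signs were the same within each set: Alpl had 0.67 in 1025s_182s, 0.67 in 600s_182s and 0.52 in 613s, and Slc6a13 had -0.71, -0.42 and -0.20 in those sets. The genes were picked over these same wells, so the values by set are no separate support. Those of 600s_182s rest on few wells, since Emcn had no read in 17 of its 20 fibroblast wells. The 20 genes at the ends of this list, 10 at each end, included none of the other 8. With only 20 of 10307 genes listed, that absence is not read as a result.

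Alpl and Coch, like Emcn, were lowest in fibroblast wells of 600s_182s, where Slc6a13 was highest. In fibroblast wells Alpl stood at 3027 CPM in 1025s_182s, 282 CPM in 600s_182s and 2525 CPM in 613s, and Coch at 1502, 40.7 and 1896 CPM in that order. Slc6a13 had 349 CPM in 1025s_182s, 2427 CPM in 600s_182s and 230 CPM in 613s. Alpl is also an endothelial gene, at 928 CPM in endothelial wells, against 2515 CPM in fibroblast wells. Coch had 107 CPM in endothelial wells, against 1492 CPM in fibroblast wells.

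Cdh5 in fibroblast wells was less abundant and also differed between sets, at 34.3 CPM in 1025s_182s (31.2 to 37.6), 44.9 CPM in 600s_182s (37.8 to 53.1) and 20.2 CPM in 613s (17.6 to 23.1). Within a set, the 3 highest wells gave 63.2%, 92.1% and 91.7% of its reads, in that order of sets. Its 9 fibroblast wells above 100 CPM came from all 3 sets, with 5, 3 and 1. In those wells Cdh5 ran between 105 and 555 CPM, while Pecam1 had a median of 3.53 CPM, Flt1 0 and Cldn5 11.5 CPM. Dcn, a fibroblast proteoglycan, had a median of 3065 CPM there, and Col1a1 had 2140 CPM. Only 1 of the 9 wells had at least 3 other members of the set at 20 CPM. The correlation of Cdh5 with the other 8 over fibroblast wells was 0.07, the lowest of the 9 genes.

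In the comparison of fibroblast with lineage wells, 8 of 9 genes were called higher, beside 22.4% of 12291 genes higher and 26.0% lower. Sox17 missed the level of 10 CPM in both classes and was left out of the 8 whose median log2 ratio, 3.33, stood against -0.09 for all genes. Of these 8, only Flt1 and Ly6c1 reached 10 CPM in lineage wells. Emcn had a log2 ratio of 6.68, Cdh5 4.09, Tie1 3.97, Kdr 3.39, Tek 3.26, Flt1 2.73, Pecam1 2.28 and Ly6c1 1.43. With wells that passed no other gate, 4 of 9 were called higher, beside 22.9% of 12288 genes higher and 28.0% lower. There Pecam1 had 0.12, Ly6c1 0.89 and Kdr 1.56, whereas Emcn had 7.00, Cdh5 4.40 and Tie1 3.79. The values differed between sets. Kdr had a log2 ratio of 5.40 in 1025s_182s, -0.47 in 600s_182s and 0.14 in 613s, and 0.33 without 1025s_182s. Without that set 6 of 9 genes were called higher, beside 22.6% of 12309 genes higher and 31.9% lower. Ly6c1 had 1.58, -0.32 and 0.28 in the 3 sets in that order, and Sox17 2.75, 0.32 and -0.02.

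Lineage wells held little of any of the 9 genes, between 0.280% of the endothelial level for Sox17 and 1.12% for Ly6c1. Mature oligodendrocyte wells had the most, with a sum over the 9 of 72.7 CPM, against 34.8 CPM in precursor wells and 13.7 CPM in committed precursor wells. At least 5 of the genes were found in 48 of 315 thinned wells of mature oligodendrocytes, 4 of 239 of precursors and 2 of 88 of committed precursors. The endothelial gate was passed by 15 of these mature wells.

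The sets differed as well. Lineage wells of 613s held 112 CPM of the 9 genes, those of 1025s_182s 38.1 CPM and those of 600s_182s 15.5 CPM, and 49 of the 54 lineage wells with at least 5 of the genes came from 613s. All 20 lineage wells above 100 CPM of Flt1 were from 613s, as were 13 of 14 for Pecam1, 13 of 14 for Emcn and 27 of 31 for Ly6c1. Mature oligodendrocyte wells made up 160 of the 207 lineage wells of 613s and 63 of the 319 of 600s_182s, so set and stage move together and their parts were not tested. Correlations of the genes with the read depth of a lineage well lay between -0.18 for Sox17 and -0.40 for Pecam1.

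Over all lineage wells, reads of the 9 genes occurred together. A lineage well with a Pecam1 read after thinning had a Flt1 read in 48.4% of cases, against 16.3% of wells without Pecam1, and an Emcn read in 44.1%, against 11.9%. Wells with Cdh5 had Pecam1 in 69.7% of cases, against 27.1% of wells without it, though only 33 wells had Cdh5. For all 72 ordered pairs of genes the share of wells with the partner was higher in wells that had the gene. Each pair of genes is counted here in both orders, which always give the same direction, so the orders are not separate results. The shares above pool the sets, which differ in detection: at least 1 of the 9 genes was found in 62.9% of lineage wells of 1025s_182s, 40.4% of 600s_182s and 87.0% of 613s. Within a set the share was higher for 48 of the 72 ordered pairs in 1025s_182s, 60 in 600s_182s and 70 in 613s. In 1025s_182s Cdh5 and Sox17 were each found in 1 thinned lineage well, so pairs with them rest on that well. Flt1 was found in 31.4% of wells with Pecam1, against 13.6% of those without it, in 1025s_182s, in 17.9%, against 10.0%, in 600s_182s, and in 64.0%, against 37.6%, in 613s. These counts were added after the pooled values were seen. Without the 16 lineage wells that passed the endothelial gate the count over all sets was again 72 of 72. The correlation of each gene with the mean of the other 8 over lineage wells lay between 0.33 for Sox17 and 0.78 for Flt1. Emcn had 0.62 here, a higher value than over fibroblast wells; the difference was not tested.

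**Figure D5:**
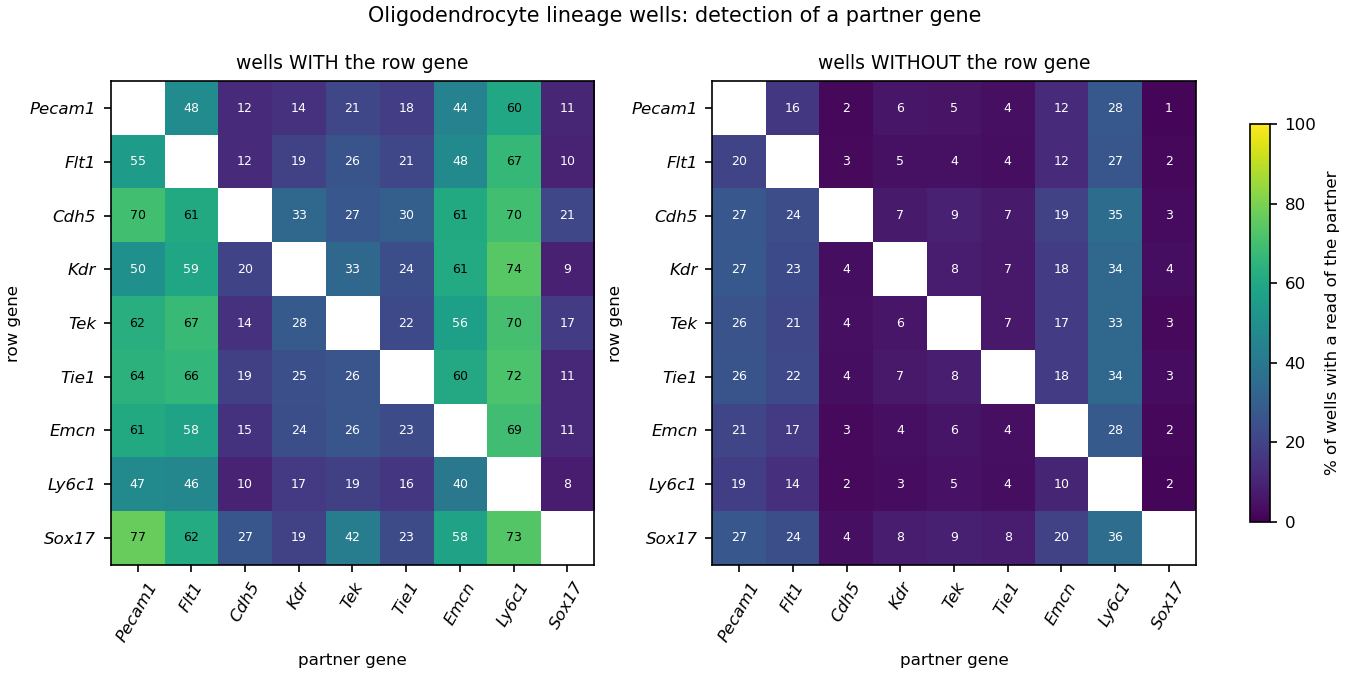
Percentage of oligodendrocyte lineage wells, thinned to 50000 reads, with a read of the partner gene (columns), among wells with a read of the row gene (left) and wells without it (right). Every cell on the left is higher than its counterpart on the right, for example 48.4% against 16.3% for Flt1 in wells with and without Pecam1; the wells of the 3 sets are pooled.

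A single lineage well stood apart. A precursor well of set 1025s_182s held 246 reads of Pecam1 among 53242, or 4620 CPM, the highest Pecam1 level of all lineage wells. It had no read of the other 8 genes nor of Cldn5, Egfl7 or Ptprb. Of precursor genes, Cspg4 stood at 695 CPM, Ptprz1 at 56.3 CPM (3 reads) and Pdgfra at 0. Mog, a mature oligodendrocyte marker, stood at 75.1 CPM, so the markers of this well were mixed. The well was picked after its values were seen.

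Reads of the genes also occurred in wells that passed no gate. Of the 35 such wells, 34 came from 1025s_182s, with a median depth of 87448 reads and the summed mature oligodendrocyte markers at 13717 CPM. Pecam1 was found in 27 of them after thinning (77.1%), Ly6c1 in 65.7%, Emcn in 48.6% and Flt1 in 40.0%, at 28.2 CPM for Pecam1 and 26.7 CPM for Ly6c1. In fibroblast wells the shares were lower, 36.7% for Pecam1 and 37.8% for Ly6c1, and in lineage wells 29.3% for Pecam1 and 37.1% for Ly6c1. A read of Pecam1 or Ly6c1 in a fibroblast or lineage well was thus no more frequent than in ungated wells, and these shares are not read as a difference between classes. Levels above 100 CPM without the endothelial gate occurred in 18 lineage wells for Ly6c1 and 7 for Pecam1. Sox17 was found in 74.6% of endothelial wells, 7.78% of fibroblast wells, 4.05% of lineage wells and 8.57% of the ungated wells.

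Other endothelial genes also stood higher in endothelial wells. Of 12 junction and surface genes, 12 were called higher in endothelial than in lineage wells, with a median log2 ratio of 6.57, beside 22.7% of all genes higher and 26.1% lower. Of these, Cldn5, Egfl7 and Adgrl4 are gate markers, so their calls follow from the gate. Only 5 of the 12 reached 10 CPM in lineage wells. Adgrl4 had 8.07 and Icam2 7.58, whereas Clec14a had 4.38 and Ramp2, part of the adrenomedullin receptor, 2.36. Of 11 endothelial transcription factors, 11 were higher, with a median of 6.11. None of them reached 10 CPM in lineage wells, so the level filter allowed no lower call and the count is not read as a result. Sox18, a relative of Sox17, had 7.48 and the haematopoietic and endothelial factor Gata2 7.14, against 4.58 for Tal1 and 4.56 for Ets1.

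Of 6 partners of the VEGF and angiopoietin receptors, 5 were higher in endothelial than in lineage wells, with a median log2 ratio of 5.55, beside 22.7% of all genes, and Ptprb among them is a gate marker. Eng, a co-receptor for TGF-beta family ligands, had 7.16 and its partner Acvrl1 7.10. Nrp1, a VEGF co-receptor, had 4.12, and Nrp2 was not called at -0.60. Several partners were also high in fibroblast wells, where Eng stood at 1034 CPM, against 9.14 CPM in lineage wells, and Nrp1 at 617 CPM, against 19.6 CPM. In endothelial wells Eng stood at 1453 CPM and Nrp1 at 356 CPM.

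The ligands of these receptors were mixed. Of 6 VEGF and angiopoietin ligands, 4 were higher and 1 lower in endothelial than in lineage wells, beside 22.7% and 26.1% of all genes. Vegfc stood at 124 CPM in endothelial wells, 1.25 CPM in fibroblast wells and 2.64 CPM in lineage wells. Pgf, which binds Flt1, stood at 61.6 CPM in endothelial wells, 265 CPM in fibroblast wells and 2.70 CPM in lineage wells. Vegfa, the main ligand of Kdr, stood at 4.74 CPM in endothelial wells, 35.8 CPM in fibroblast wells and 14.4 CPM in lineage wells. Between endothelial and fibroblast wells, 1 of the 6 ligands was higher and 4 lower, beside 21.3% and 21.5% of all genes.

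Genes of vessel segments were also mostly higher in endothelial wells. Of 6 arterial genes 6 were higher in endothelial than in lineage wells, of 6 venous genes 6, and of 6 capillary genes 4, beside 22.7% of all genes. In lineage wells only 1 of the arterial and 2 of the venous genes reached 10 CPM. For the other arterial and venous genes the level filter allowed no lower call. Gkn3, an arterial gene, had a log2 ratio of 6.83, the venous amino acid transporter Slc38a5 7.73 and the capillary carbonic anhydrase Car4 7.00. Mfsd2a, a lipid transporter of the blood-brain barrier, was not called, at 223 CPM in endothelial wells and 384 CPM in lineage wells. Of 4 Ly6 neighbours, 3 were higher, Ly6a with 6.60 and Ly6e with 4.98, and Ly6h was lower with -3.91. Of 5 erythrocyte genes, 5 were higher in endothelial wells, summing to 313 CPM there (0 to 4377 CPM per well, median 1.27) and 13.5 CPM in lineage wells (0 to 1452), with none of the 5 at 0. None of the 5 reached 10 CPM in lineage wells, so their calls follow from the level filter and are not read as a result. Erythrocyte genes had correlations with the 9 of no more than 0.21 over endothelial wells, and their part was not tested.

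Markers of other cells, in lists of 5 genes each, were counted in the same comparison, beside 22.7% of all genes higher and 26.1% lower. The lymphocyte, perivascular macrophage and monocyte genes that were tested reached 10 CPM in endothelial wells only. Their calls thus follow from the level filter and are not read as a result. Of the lymphocyte genes, 2 of the 2 tested were higher in endothelial than in lineage wells, and the list summed to 45.1 CPM in endothelial wells (0 to 1423 CPM per well), 1.66 CPM in fibroblast wells and 0.497 CPM in lineage wells, with the T cell gene Cd3e at 0 in all 3 classes. Of the perivascular macrophage genes, 2 of 2 tested were higher, with sums of 24.9 CPM in endothelial wells, 4.68 CPM in fibroblast wells and 0.984 CPM in lineage wells. Of the monocyte and neutrophil genes 1 was tested, the chemokine receptor gene Ccr2, at 23.6 CPM in endothelial wells, against 0.107 CPM in lineage wells, while S100a8, S100a9 and Retnlg were at 0 in endothelial wells. Of the platelet genes, 2 of 3 tested were higher and 1 lower, and the list summed to 56.8 CPM in endothelial wells, 48.5 CPM in fibroblast wells and 70.2 CPM in lineage wells. Of the astrocyte genes, 1 was higher and 3 lower, as for the neuron genes, and of 3 lymphatic endothelial genes tested, 1 was higher and 2 lower. The part of these cells in the levels of the 9 genes was not tested.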

How the data were processed

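Single cells of mouse brain were measured by SMART-seq2. The authors deposited 1 table of raw counts, whole reads per gene, for 46517 genes and 1152 wells. Per the submitters' processing notes, the tools were SAMtools (0.1.18), TopHat2 (2.1.1), Subread (1.4.6-p5) and its counter featureCounts, with builds given as GRCm38 and mm10. Whether counting used strand is not given in the sources used here. The labels put every well in the same group, so no well was assigned a treatment, and no p-value was computed.

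From those counts, wells with at least 50000 reads were kept (857; 295 left out). CPM were computed per well, and per class from summed reads, so deep wells weigh more. Log2 ratios had 1 CPM added on each side. Classes came from 8 marker gates, with the 3 oligodendrocyte gates joined. Doublets were not removed, and wells that passed several gates were kept and tried without. Co-detection used 50000 reads drawn per well without replacement (seed 1). Intervals are 95% exact Poisson (levels) or Clopper-Pearson (shares). Gene positions and exon lengths come from GENCODE vM21 (GRCm38), promoters from RefSeq.

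All 9 members are described. The 10 genes most like them were ranked by correlation, and most examples from other lists are among the highest or lowest by ratio in their list. Members, gates and lists were chosen with earlier results of these data known. Python 3.11.15, numpy 2.4.6, pandas 2.3.3, scipy 1.17.1, and R 4.3.3 with edgeR 4.0.16 and DESeq2 1.42.0 (scaling factors only) were used. Ratio calculations were tested on simulated data. The alternatives tried were the minimum depth, the gate level, wells of a single gate, the scaling, the weighting of wells, the level filter, the thinning, and leaving out each set.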

Additional observations from a re-analysis of the deposited data

Results flagged for a closer look

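The 9 genes were also read in the 295 wells left out for having fewer than 50000 reads, which no comparison used. Their summed level there was 783 CPM (95% exact Poisson interval 763 to 803), from 5817 reads among 7429132, and 288 of the 295 wells had at least 1 such read. Ly6c1 stood at 198 CPM, Flt1 at 147, Pecam1 at 136, Emcn at 112 and Tek at 105 CPM, each above the limit of 0.404 CPM that a count of 0 allows over these wells. Over all kept wells the sum was 809 CPM.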

How the results depend on the processing

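The direction of all 342 log2 ratios computed under 13 settings was that of the values reported, for 9 genes in 3 comparisons. Of 9 genes, 9 were called higher in endothelial than in lineage wells and 8 in endothelial than in fibroblast wells under every setting run. Over all genes, 20.6% to 26.1% were called higher and 24.7% to 40.0% lower in the first comparison. In the second, 19.9% to 28.0% were higher and 21.4% to 36.5% lower. In fibroblast against lineage wells, 8 were called, but 4 with wells that passed no other gate, 6 with the mean of the CPM of each well, 6 without set 1025s_182s, 7 without 600s_182s and 9 with no filter on low values. Under these settings 21.3% to 25.7% of all genes with at least 10 CPM were called higher and 25.3% to 31.9% lower. The log2 ratio of Emcn between endothelial and fibroblast wells ranged between 0.01 and 0.52. The share of lineage wells with at least 5 of the genes, 8.41%, was 2.89% at a minimum of 100000 reads, 5.13% with wells of a single gate, 31.2% without thinning and 2.34% where 2 reads were asked for, and it was 16.1% without 600s_182s and 1.15% without 613s. The share of fibroblast wells, 8.89%, was 47.8% without thinning and 3.13% without 613s. The share of endothelial wells, 98.3%, was 100% with wells of a single gate, without thinning and without 1025s_182s. The cause of these shifts was not tested.

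The scale itself moved. The median log2 ratio of all genes between endothelial and lineage wells was -0.04, but -0.37 with wells of a single gate, where 37.5% of calls were higher, against 46.5% of calls with all wells, and -0.19 with TMM scaling. The lowest log2 ratio of any of the 9 genes in that comparison, under any setting, was 5.71 (Ly6c1). Alternatives added after seeing the data left out wells of other classes that passed the endothelial gate, or fibroblast wells with at least 10 CPM of Cldn5: 6 and 7 of the 9 genes were then called higher in fibroblast than in lineage wells. Over all genes, 22.5% and 22.8% were then higher and 26.6% and 29.5% lower. No paired analysis was possible because the wells carry no replicate numbers and form 1 group. Depth limits the absence of a gene in a well: at 50000 reads a well holds 1 read at 20 CPM, so a well without a read is not shown to lack the transcript.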
